A study of Mus musculus with 4 samples.

Results

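The IFIT genes encode interferon-induced proteins with tetratricopeptide repeats. The mouse members Ifit1, Ifit2, Ifit3, Ifit3b, Ifit1bl1 and Ifit1bl2, were taken by symbol from the count table, 6 genes of the 55487 annotated genes it lists. All 6 passed the filter on low counts, Ifit1bl2 only through its UBXN9 libraries, since 1 of its 2 control libraries lay under the limit. The study sequenced RNA of LPC-HRas, a line of mouse liver cancer cells, without any stimulus. There were 2 libraries of control genotype and 2 of cells that overexpress UBXN9, the UBX-domain protein that Aspscr1 encodes. All 4 libraries share the line, the culture medium and the unstimulated state. The vector that raised UBXN9, its promoter and whether a culture came from 1 clone are not given in the sources used here, nor is it said that replicates were separate cultures, so the p-values measure the spread between these libraries, which may be technical.

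IFIT genes are barely transcribed in most resting cells and are among the first genes to respond to type I interferon, whose receptor activates transcription factors that include STAT2 and IRF9. These act through a DNA element called the interferon-stimulated response element, and IRF3 can also act on it directly when a cell senses viral RNA. The proteins bind foreign RNA or each other: IFIT1 holds RNA whose cap lacks ribose methylation and keeps it from the ribosome, IFIT2 binds RNA and the initiation factor eIF3, and IFIT3 acts mainly as a partner of other members. Interferon signalling is of interest in liver cancer because tumour cells that carry it can attract and be seen by T cells.

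The 6 genes lie side by side on chromosome 19 (GRCm38, GENCODE release M21) over 99.3 kb. From the left they are Ifit2 (ENSMUSG00000045932, 34550694 to 34576419, plus strand), Ifit3 (ENSMUSG00000074896, 34583531 to 34588731, plus strand) and Ifit1bl1 (ENSMUSG00000079339, 34592891 to 34601956, minus strand). They are followed by Ifit3b (ENSMUSG00000062488, 34607970 to 34613401, plus strand), Ifit1bl2 (ENSMUSG00000067297, 34617049 to 34640743, minus strand) and Ifit1 (ENSMUSG00000034459, 34640871 to 34650009, plus strand). All are annotated as protein coding. Ifit1bl2 and Ifit1 point away from each other with 127 bases between them, so they share a promoter region. The pseudogene AC016791.2 lies within Ifit1bl2 on the other strand and had 0 counts in all 4 libraries.

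The response element, through which interferon acts on IFIT genes in general, is shown here by its letters alone. Whether these cells use the element was not tested. RefSeq promoters (GRCm38.p6, 250 bases before to 50 after each start site) were searched on both strands for its core, GAAANNGAAA, which reads TTTCNNTTTC on the other strand. A match was found in 5 of 6 members, against 3.99% of 27025 genes with a promoter and 7 of 19 other interferon-induced antiviral genes with a promoter. Each line gives the matches in capitals with 20 bases on either side, read 5′ to 3′ along the gene's own strand.
Ifit1, plus strand, chr19:34640765-34640833: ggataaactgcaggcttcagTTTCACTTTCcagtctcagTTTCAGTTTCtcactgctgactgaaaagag
Ifit1bl2, minus strand, chr19:34640765-34640833: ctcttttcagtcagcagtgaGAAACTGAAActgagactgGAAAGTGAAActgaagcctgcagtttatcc
Ifit3, plus strand, chr19:34583353-34583436: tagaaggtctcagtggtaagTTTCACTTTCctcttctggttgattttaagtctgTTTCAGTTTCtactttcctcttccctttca
Ifit3b, plus strand, chr19:34607749-34607832: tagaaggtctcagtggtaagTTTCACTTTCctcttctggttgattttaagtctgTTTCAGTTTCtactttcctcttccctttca
Ifit1bl1, minus strand, chr19:34602043-34602092: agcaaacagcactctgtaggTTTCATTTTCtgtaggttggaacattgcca

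Ifit1 and Ifit1bl2 share the same pair of matches, read from opposite strands: the pair begins 104 bases before the start of Ifit1 and 70 bases before that of Ifit1bl2 at 34640743. The window of a second RefSeq start site of Ifit1bl2, at 34629811, held 0 matches, so that 6 of 9 promoter windows of the members held the core. The lines for Ifit3 and Ifit3b are identical, and their promoter windows hold an identical run of 169 bases. The pair of matches is 24 bases apart in both, against 9 in Ifit1. Ifit1bl1 has 1 match before each of its 2 RefSeq start sites, and the line shown belongs to the site at 34601968. Neither promoter window of Ifit2 contained these letters, which says nothing of other windows.

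Library totals ran from 21814969 to 26292686 estimated counts. Aspscr1 stood at 92.1 and 115 CPM in control 1 and 2 and at 392 and 380 CPM in UBXN9 1 and 2 (3.72-fold, edgeR adjusted p = 0.00144), where CPM, the usual counts-per-library-size unit, was scaled with edgeR's TMM factors. Among 5 hepatocyte markers, Alb and Serpina1a had 0 counts in all libraries and Hnf4a 1 count over the 4 libraries. Ttr had 2 to 5 counts in a library, and Apoa1 stood at 0.363 to 1.24 CPM. Sox9 and Spp1, from a list of biliary and progenitor genes, stood at 168 to 208 and 2198 to 2991 CPM. The other 3 genes of that list were low: Krt7 and Epcam had at most 4 counts in a library, and Krt19 fell from 7.06 and 10.4 to 3.29 and 2.15 CPM (log2 -1.69, edgeR adjusted p = 0.0294). The 6 lymphocyte markers summed to 0.0382 to 0.299 CPM per library (Cd3e and Cd3g at 0), and the 2 natural killer markers to at most 0.0454 CPM. The 6 myeloid markers summed to 6.68 and 6.81 CPM in the controls and 12.1 and 9.95 CPM in the UBXN9 libraries, with Clec4f at 0 and Lyz2 3.53-fold higher (edgeR adjusted p = 0.0408). The 3 endothelial markers summed to 1.86 to 4.33 CPM. The 4 stellate and fibroblast markers summed to 188 to 205 CPM in the controls and 306 to 385 CPM in the UBXN9 libraries, with Lrat at 0 in 3 libraries and at 1 count in UBXN9 2. Most of each sum was Pdgfrb, at 174 and 162 CPM in the controls and 196 and 240 CPM in the UBXN9 libraries. Pdgfrb did not pass (edgeR adjusted p = 0.26). Of these 4 markers Col1a1, a collagen gene, rose 4.59-fold, from 30.3 and 24.9 to 109 and 144 CPM (edgeR adjusted p = 0.00136). Bst2 and Siglech, fixed as markers of plasmacytoid dendritic cells, summed to 153 to 195 and 1114 to 1222 CPM, nearly all of it Bst2, itself an interferon-induced gene; Siglech had at most 5 counts. Ribosomal RNA of CT010467.1 stood at 1985 and 3429 CPM in the controls and 5529 and 8127 CPM in the UBXN9 libraries (edgeR adjusted p = 0.0626). The part of these markers and of ribosomal RNA in the results on IFIT genes was not tested.

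All 6 IFIT genes were higher in UBXN9-overexpressing cells, by 3.62-fold for Ifit1 to 34.3-fold for Ifit1bl1. Of 13230 genes tested, 5.06% passed as higher at the same threshold, an edgeR adjusted p under 0.05, and 2.38% as lower, 7.44% in all. Both UBXN9 libraries lay above both controls for 6 of 6 members and for 25% of all genes tested. The median log2 fold change was 3.43 over the 6 members and -0.0056 over all genes tested. The 6 genes together took 297 and 204 CPM in control 1 and 2 and 2541 and 2273 CPM in UBXN9 1 and 2, so that the mean rose from 250 ± 66.0 to 2407 ± 190 CPM (SD, n = 2), a ratio of 9.62 (edgeR adjusted p = 0.000717 with the 6 summed as 1 gene). In bulk RNA, a rise in more of the cells and a rise in each cell cannot be told apart. With 2 libraries a group, the smallest two-sided p of an exact permutation test is 0.333.

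Ifit3, the partner protein, carried most of this total in the UBXN9 libraries, and 40.6% and 44.5% of it in control 1 and 2. Its counts were 3160 in control 1, 1998 in control 2, 33646 in UBXN9 1 and 39470 in UBXN9 2, or 121 and 90.6 CPM against 1675 and 1488 CPM. The groups did not come near each other: the lower UBXN9 library was 12.3 times the higher control. The log2 fold change was 3.90 (SE 0.23, edgeR adjusted p = 0.000304), a 15-fold rise with a 95% interval of 10.2 to 22.0. By CPM per kb of exon, Ifit3 ranked 924 of 13211 genes in control cells and 57 in UBXN9-overexpressing cells.

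Ifit3b, the second Ifit3 copy, stood at 28.2 and 17.7 CPM in control 1 and 2 and at 329 and 323 CPM in UBXN9 1 and 2. Both UBXN9 libraries were alike and both far above the controls, with a 14.2-fold rise (log2 3.83, SE 0.25, edgeR adjusted p = 0.000389). The transcripts of Ifit3 and Ifit3b are close copies: of the 100-base stretches in Ifit3, 31.7% occur in Ifit3b, and 27.4% of those in Ifit3b occur in Ifit3. Reads in these stretches cannot be assigned to 1 gene by sequence, and both genes carried fractional counts in all 4 libraries. With their counts added together as 1 gene, the log2 fold change was 3.89.

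Ifit1, the cap-sensing member, had about as many counts as Ifit3 in control cells, from a longer transcript, and the smallest fold change of the 6. It stood at 121 and 78.6 CPM in control 1 and 2 and at 400 and 321 CPM in UBXN9 1 and 2. The groups did not overlap, the lower UBXN9 library being 2.66 times the higher control. The log2 fold change was 1.85 (SE 0.25, edgeR adjusted p = 0.00597), a 3.62-fold rise with a 95% interval of 2.42 to 5.41, which does not reach the interval of Ifit3. Of its 100-base stretches 3.29% occur in another gene, Ifit1bl2.

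Ifit2, which binds RNA and eIF3, stood at 26.1 and 15.8 CPM in control 1 and 2 and at 117 CPM in both UBXN9 libraries. It rose 5.56-fold (log2 2.48, SE 0.25, edgeR adjusted p = 0.002). Ifit2 shared no stretch of 50 bases with another gene and had whole counts in all libraries, so its value does not depend on how shared reads were divided.

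Ifit1bl1 and Ifit1bl2, Ifit1-like genes with RefSeq synonyms Ifit1c and Ifit1b, were near the limit of detection in control cells. The counts of Ifit1bl1 were 13 in control 1, 10 in control 2, 323 in UBXN9 1 and 449 in UBXN9 2, which is 0.496 and 0.454 against 16.1 and 16.9 CPM. It rose 34.3-fold (log2 5.10, SE 0.29, edgeR adjusted p = 0.000262), and the lower UBXN9 library was 32.4 times the higher control. Ifit1bl2 had 25 and 8 counts in the controls against 93 and 168, which is 0.954 and 0.363 against 4.63 and 6.33 CPM. Its rise was 8.14-fold (log2 3.03, SE 0.47, edgeR adjusted p = 0.0116), and it was 14.9-fold without control 1, a ratio that rests on the 8 counts of control 2. The 100-base stretches of Ifit1bl1 and Ifit1bl2 that occur in another gene made up 0.51% and 2.91%.

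**Figure D1:**
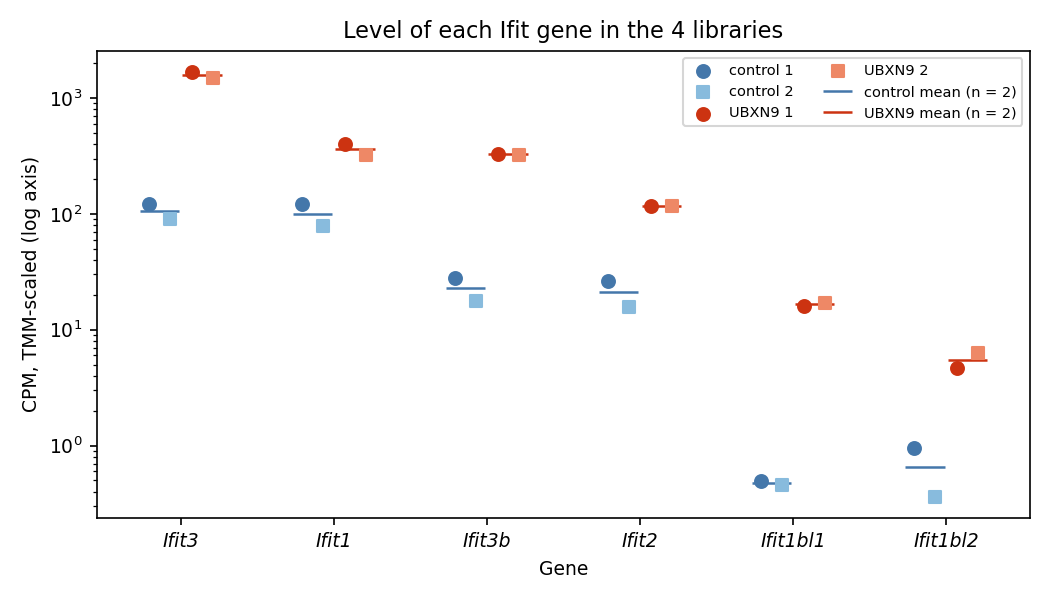
Level of each IFIT gene by library, as TMM-scaled CPM on a log axis. Circles and squares are replicates 1 and 2 of control (blue) and UBXN9-overexpressing cells (red), and bars are the means of 2 libraries. For each gene both red points lie above both blue points, and control 1 lies above control 2.

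**Figure D2:**
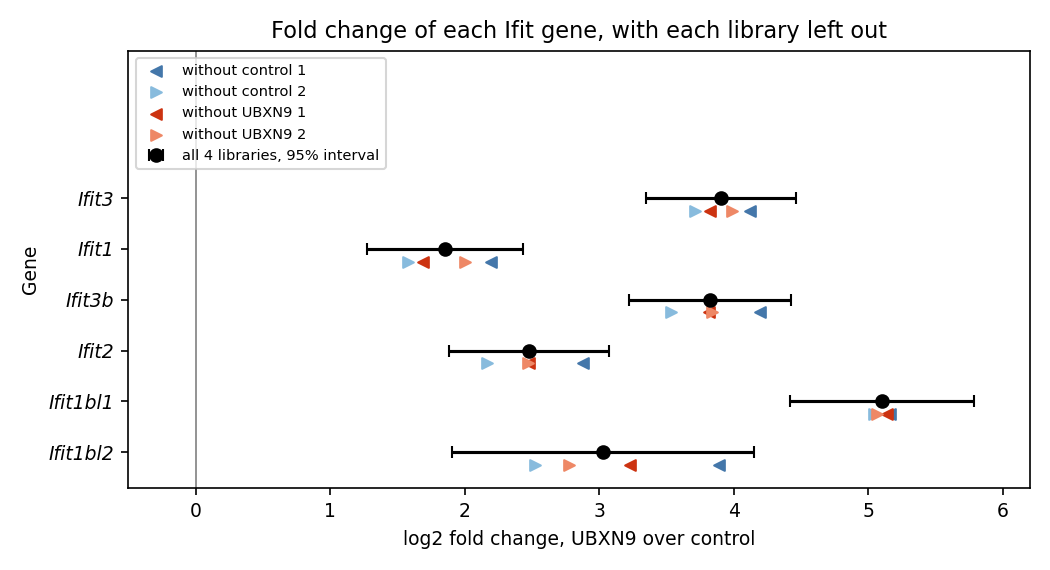
Log2 fold change of each IFIT gene, UBXN9 over control, with its 95% interval from all 4 libraries (black), and the value with each library left out (triangles). No interval reaches 0, and the interval of Ifit1 (1.27 to 2.44) lies below those of Ifit3 (3.35 to 4.46) and Ifit3b (3.22 to 4.43).

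Per kb of exon the order in control cells was Ifit3 at 60.5 ± 12.1, Ifit1 at 37.5 ± 11.2, Ifit3b at 11.5 ± 3.68, Ifit2 at 5.34 ± 1.85, Ifit1bl1 at 0.21 ± 0.0133 and Ifit1bl2 at 0.196 ± 0.124 CPM per kb (SD, n = 2). Ifit3 and Ifit1 were each higher than the next gene in both libraries, whereas Ifit1bl1 and Ifit1bl2 exchanged places between control 1 and control 2. In UBXN9-overexpressing cells the first 2 places were held by Ifit3 at 906 ± 75.6 and Ifit3b at 163 ± 2.15 CPM per kb. Ifit1 followed at 136 ± 20.9, Ifit2 at 29.8 ± 0.0611, Ifit1bl1 at 7.30 ± 0.266 and Ifit1bl2 at 1.63 ± 0.358 CPM per kb. Ifit1 and Ifit3b thus exchanged places in the order of means, and in UBXN9 1 they stood at 151 and 164 CPM per kb, a gap smaller than the difference between the UBXN9 libraries for Ifit1.

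Within the family, Ifit1 took a smaller share and Ifit3 a larger one in UBXN9-overexpressing cells. Ifit1 gave 40.6% of the summed IFIT counts in control 1 (95% Wilson interval 39.6 to 41.7) and 38.6% in control 2 (37.2 to 40.0), against 15.7% in UBXN9 1 (15.4 to 16.1) and 14.1% in UBXN9 2 (13.9 to 14.4). Ifit3 gave 40.6% (39.5 to 41.7) and 44.5% (43.1 to 46.0) of control counts, against 65.9% (65.5 to 66.3) and 65.5% (65.1 to 65.9) in the UBXN9 libraries. These intervals cover counting error only. The count ratio of Ifit3 to Ifit1, which no scaling between libraries can change, was 0.999 and 1.15 in control 1 and 2 and 4.19 and 4.63 in UBXN9 1 and 2, a 4.10-fold difference.

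The ratio of Ifit3 to Ifit3b was 4.28 and 5.11 in control cells against 5.09 and 4.61 with UBXN9, so the groups overlapped. The ratio of Ifit1bl1 to Ifit1bl2 was 0.519 and 1.25 in control cells against 3.46 and 2.68 with UBXN9. Ifit1 and Ifit1bl2 share their pair of response element matches, and their count ratio was 126 and 216 against 86.0 and 50.9. The ratio of Ifit1 to Ifit2 was 4.63 and 4.96 against 3.43 and 2.74. Groups did not overlap in 4 of these 5 ratios, each with an exact permutation p of 0.333, the smallest this design allows (0.417 adjusted over the 5 by the Benjamini-Hochberg method), and the ratio of Ifit3 to Ifit3b had p = 1 in the same exact test.

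**Figure D3:**
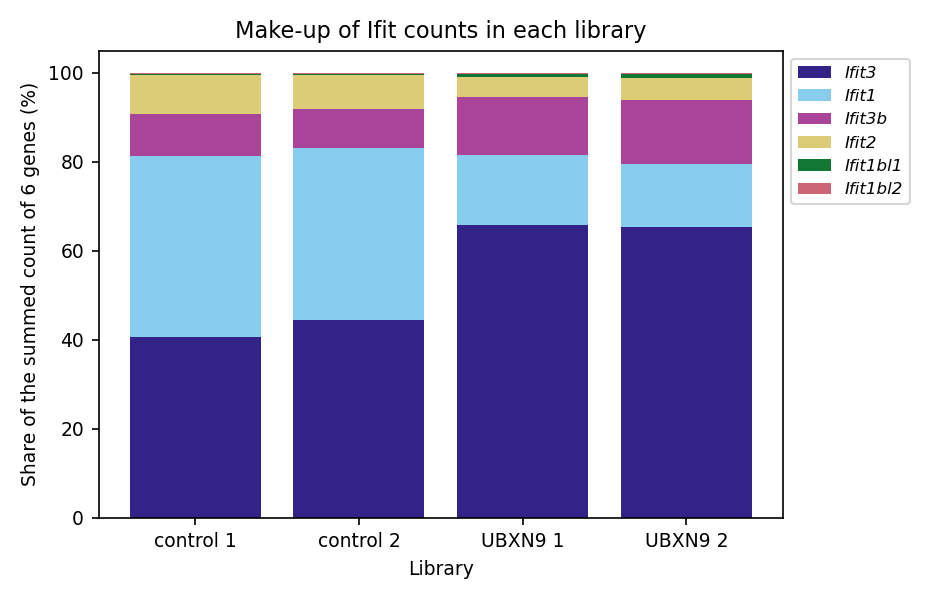
Share of the summed counts of the 6 IFIT genes taken by each gene, in percent, for each library. Ifit1 takes 40.6% and 38.6% of control counts, against 15.7% and 14.1% in the UBXN9 libraries, and Ifit3 takes 40.6% and 44.5% against 65.9% and 65.5%.

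The control libraries also differed from each other in these genes. Control 1 was above control 2 in 6 of 6 members, against 51.4% of genes tested, by 1.33 times for Ifit3, 1.54 for Ifit1, 1.59 for Ifit3b, 1.65 for Ifit2, 2.63 for Ifit1bl2 and 1.09 for Ifit1bl1. It was at least 1.3 times control 2 in 5 of 6 members and in 16.6% of all genes tested. Among 25 other interferon-induced antiviral genes tested, 19 were above in control 1, 7 of them by at least 1.3 times. The UBXN9 libraries had no common direction, with UBXN9 1 at 1.24 times UBXN9 2 for Ifit1 and 0.731 times for Ifit1bl2.

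Genes of the interferon pathway, which include inhibitors as well as activators, rose in part. Their role in the rise of the IFIT genes was not tested. Of 17 genes of interferon production and signalling, all tested, 11 rose and 0 fell (median log2 fold change 1.04). Of all genes tested, 5.06% rose and 2.38% fell. Ifnb1, which encodes interferon beta, had 2 counts in control 1, 5 in control 2, 28 in UBXN9 1 and 45 in UBXN9 2 (10.2-fold, edgeR adjusted p = 0.0206). Ifnb1 passed the filter on low counts only through its UBXN9 libraries, with 0 control libraries over the limit. Without control 1 the Ifnb1 call was lost, at a log2 fold change of 2.73. It was kept without control 2 (4.25), without UBXN9 1 (3.49) and without UBXN9 2 (3.20). Stat2, which acts through the response element, rose 2.99-fold, from 99.4 and 84.2 CPM to 268 and 281 CPM (edgeR adjusted p = 0.0023). Irf9, which binds the element's DNA, rose 1.64-fold, from 62.4 and 69.0 CPM to 116 and 99.4 CPM (edgeR adjusted p = 0.0467). That call was lost with a replicate block (edgeR adjusted p = 0.136), library size alone (0.0532) and upper-quartile factors (0.0546). It was also lost without either control, and over all of these fits the log2 fold changes were 0.62 to 0.78 against 0.71. The Irf9 call was kept without UBXN9 1 and without UBXN9 2, at log2 fold changes of 0.60 and 0.82.

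Irf7, an interferon-induced activator, rose 6.22-fold, and Usp18, which limits receptor signalling, rose 6.52-fold, as did the transcription factor Irf5 by 6.39-fold. Irf3, which can drive IFIT genes without interferon, had 32.1 and 37.8 CPM in the controls and 37.8 and 31.0 CPM in the UBXN9 libraries, so its groups overlapped (log2 fold change -0.02, edgeR adjusted p = 0.971).

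Among 14 tested genes of a list on nucleic acid sensing and its regulation, 7 rose and 0 fell (median log2 fold change 0.93). Of all genes tested, 5.06% rose and 2.38% fell. Zbp1, which recognises Z-form RNA, rose 23.8-fold and Tlr3, which detects double-stranded RNA in endosomes, 16.5-fold. Dhx58 and Ifih1, of the RIG-I-like receptor family, rose 5.60-fold and 4.10-fold. The other interferon-induced antiviral genes rose in 24 of 25 tested cases and fell in 0, against the same 5.06% and 2.38%. Their median log2 fold change was 2.59, which lies between those of Ifit2 and Ifit1bl2. Phf11d, Parp12 (an ADP-ribosyltransferase), Mx1 (a dynamin-like GTPase) and Cmpk2 (a nucleotide kinase) rose 30.5-fold, 25.5-fold, 22.0-fold and 11.6-fold. Isg15, the ubiquitin-like modifier, rose 3.69-fold, close to the 3.62-fold of Ifit1.

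Genes of eIF3, which IFIT2 binds, and of cap binding and initiation were called at shares near or below the 7.44% of all genes tested. Of 14 eIF3 subunit genes tested, 0 passed in either direction with edgeR, DESeq2 or limma-voom, and 0 had an unadjusted p under 0.05 with any of these tools. Their log2 fold changes ran from -0.07 to 0.20. The share of all genes with an unadjusted p under 0.05 was not counted. Eif3m stood at 118 and 127 CPM in the controls and 178 and 105 CPM in the UBXN9 libraries, and Eif3c at 424 and 462 against 501 and 482 CPM. A p that misses the threshold does not show that these levels were equal. Of 13 genes of cap binding and initiation tested, 1 rose: Eif4g3, a scaffold of the cap-binding complex, from 8.47 and 7.35 to 17.9 and 25.6 CPM (2.75-fold, edgeR adjusted p = 0.0163). With library size alone as the scaling the edgeR adjusted p was 0.059. The Eif4g3 call was lost without control 2 and kept with any other library left out, at log2 fold changes of 1.18 to 1.69 over these fits.

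Enzymes that set the end of an RNA read by IFIT1 had 1 of 11 members higher, a count near what the 5.06% of all genes tested would give. It was Cmtr1, which methylates the ribose next to the cap and so marks RNA as a cell's own. Cmtr1 rose 2.05-fold, from 169 CPM in both controls to 352 and 342 CPM (log2 1.04, SE 0.15, edgeR adjusted p = 0.00909). The call was lost without either control and kept without either UBXN9 library, at log2 fold changes of 1.02 to 1.06 over these fits. Dcp2, the decapping enzyme, stood at 39.3 and 29.4 CPM in the controls and 55.6 and 67.8 CPM in the UBXN9 libraries and did not pass (edgeR adjusted p = 0.057). At an unadjusted p under 0.05, 4 of the 11 enzymes were higher with edgeR and DESeq2, 3 with limma-voom, and 0 were lower. The share of all genes under that limit was not counted. By edgeR 0 genes passed as lower on the lists of eIF3, initiation, RNA end, sensing, interferon signalling and other antiviral genes, as by DESeq2 and limma-voom. At an unadjusted p under 0.05, 1 sensing gene and 1 initiation gene were lower with each tool.

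**Figure D4:**
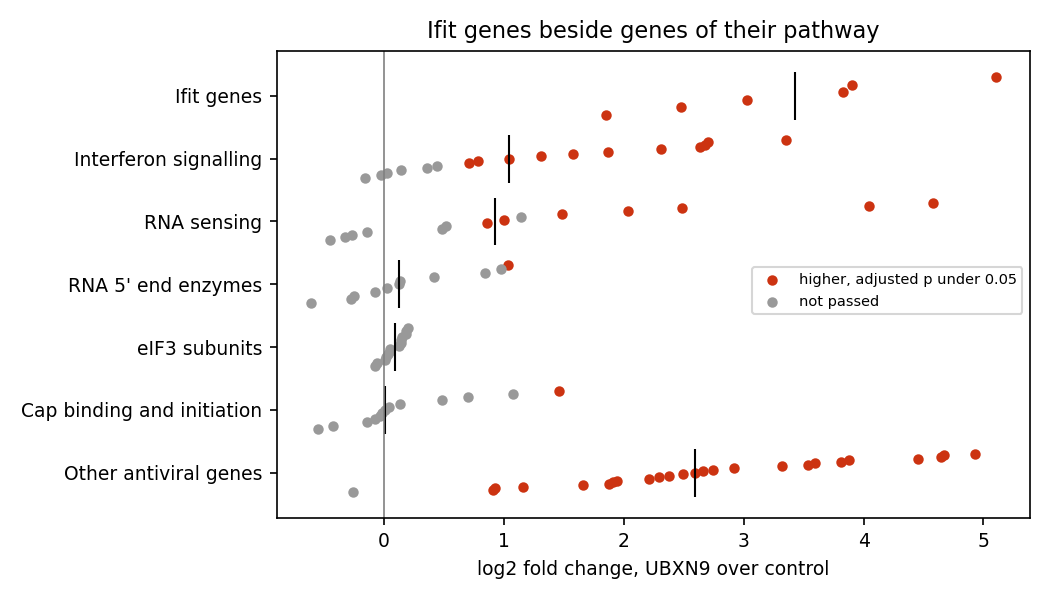
Log2 fold change, UBXN9 over control, of each tested gene in the IFIT family and 6 other lists. Red points passed as higher at an edgeR adjusted p under 0.05, grey points did not pass, black bars are medians, and vertical spread within a list has no meaning. The IFIT median of 3.43 lies to the right of the 2.59 of the other antiviral genes, and eIF3 subunits lie within -0.07 and 0.20.

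Some of the genes around the cluster were higher as well. Inside the cluster or within 500 kb of it lie 29 other annotated genes, of which 8 could be tested and 20 had 0 counts in all libraries. Slc16a12, the nearest gene on the Ifit1 side, had 0 counts in control cells and 1 count in UBXN9 1 and UBXN9 2 each. Of the 8, 3 rose and 0 fell, all 3 on the Ifit2 side, against 5.06% of all genes tested that rose. Both UBXN9 libraries lay above both controls in 5 of the 8, against 25% of all genes tested. Ch25h, a cholesterol hydroxylase with antiviral activity that lies 75.5 kb from Ifit2, rose 5.51-fold, from 2.06 and 1.81 to 11.1 and 10.4 CPM (edgeR adjusted p = 0.00248). Acta2, a smooth muscle actin, rose 2.41-fold (edgeR adjusted p = 0.00784). The death receptor gene Fas rose 2.15-fold (edgeR adjusted p = 0.0448), a call lost without either control, with limma-voom, and with upper-quartile or no composition factors. The Fas call was kept without UBXN9 1 and without UBXN9 2, at log2 fold changes of 0.81 and 1.35.

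Lipa, a lysosomal lipase between Ch25h and Ifit2, stood at 65.6 and 54.6 CPM in the controls and 91.7 and 95.1 CPM in the UBXN9 libraries and did not pass with edgeR (adjusted p = 0.0672). Pank1 and Kif20b, on the Ifit1 side, had log2 fold changes of 0.17 and -0.37, and Stambpl1 and the noncoding Gm26902 of 0.40 and -0.70 (edgeR adjusted p = 0.729, 0.811, 0.259 and 0.556). For Kif20b the UBXN9 libraries disagreed, at 1.79 and 8.22 CPM, and its log2 fold change was 0.33 without UBXN9 1 and -1.87 without UBXN9 2.

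**Figure D5:**
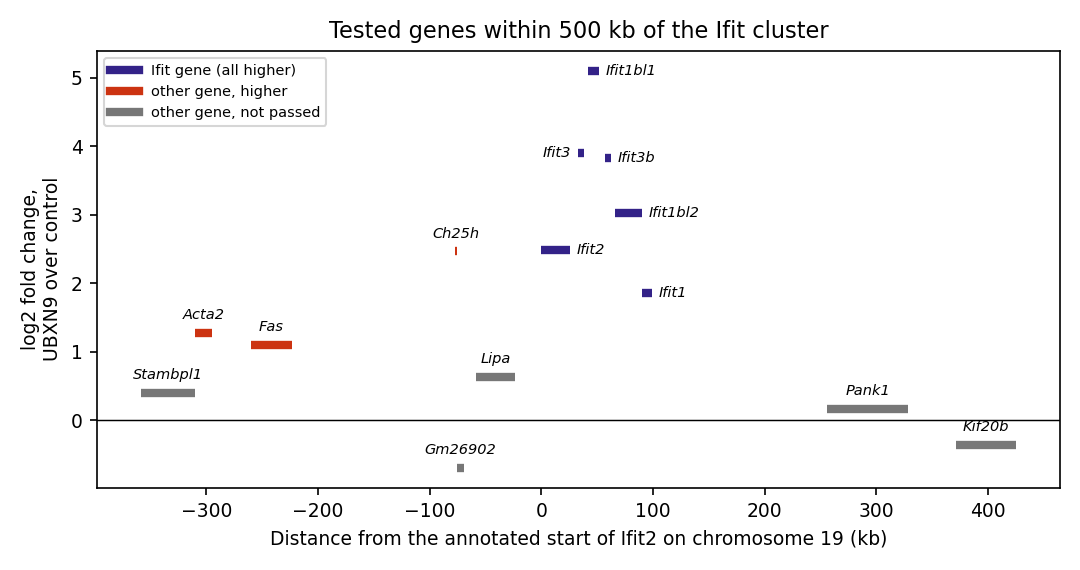
Log2 fold change, UBXN9 over control, of the 14 tested genes within 500 kb of the cluster, drawn over their annotated span as distance in kb from the start of Ifit2. The 6 IFIT genes (dark blue) lie between 1.85 and 5.10, Ch25h, Acta2 and Fas (red) passed as higher, and the other 5 genes (grey) did not pass.

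Genes outside the family with profiles like those of the IFIT genes were ranked by Euclidean distance over the 4 libraries in log2(CPM + 1), centred on each gene's mean. Since low genes are compressed on this scale, Ifit1bl1 and Ifit1bl2 appear to change less than their fitted folds. Among themselves, Ifit3 and Ifit3b lay 0.215 apart, Ifit1 and Ifit1bl2 0.509, Ifit1 and Ifit2 0.639, and Ifit1 and Ifit3 2.04. Outside the family, the nearest to Ifit3 were the interferon-inducible GTPase gene Tgtp2 at 0.0787, the peptide transporter subunit Tap2 at 0.0922, and Igtp, Gbp2 and Gbp5, GTPases as well, at 0.18 to 0.231. Tgtp2 stood at 21.2, 14.8, 301 and 276 CPM in control 1, control 2, UBXN9 1 and UBXN9 2. Ifit3b had Tap2, Tgtp2, Gbp5, Gm4951 and Igtp as its nearest genes outside the family, 4 of them shared with Ifit3. Ifit3b itself was closer to Ifit3 than Gbp2 and Gbp5 were.

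Ifit2 lay near Tbc1d9 (0.227), Olfr56, the interferon-induced genes Xaf1 and Ifi204, and Enpp4 (0.266). Ifit1 lay near C1qtnf7 (0.216), the class I-like gene H2-M3, the complement protease gene C1s1, Plekha4 and Gpr39 (0.286). Phf11b, Gbp4, Apod, Cmpk2 and Gm12606 were nearest to Ifit1bl1, at 0.152 to 0.257. Tent5a, Ifih1, Mndal, Col1a1 and Gpr39 were nearest to Ifit1bl2, at 0.125 to 0.256. With 4 libraries in 2 groups, many genes that rose by a like amount come close to each other on this measure.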

How the data were processed

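RNA of the 4 libraries was prepared with the TruSeq RNA kit, per the labels. The deposited table holds estimated counts per gene; the submitters' processing notes name HISAT2 2.1.0, HTSeq and GRCm38.p6, and settings, strand and shared reads are not given in the sources used here. Values were rounded, and 241 unannotated loci (0.386% of counts) were left out. Tests used R 4.3.3 with edgeR 4.0.16: filterByExpr (minimum count 10), TMM factors, quasi-likelihood F tests, two-sided, Benjamini-Hochberg over 13230 genes. Checks used DESeq2 1.42.0 and limma 3.58.1. The edgeR test was also run on simulated data of this size, where the share of false calls was above the nominal one, so calls near the threshold are the least certain. Figures used matplotlib 3.10.9. Replicate numbers were not taken as pairs. The members and lists were chosen with earlier results of these data known, and list counts are descriptions. Named genes were the members, Aspscr1, up to 4 of each list with the smallest p, all tested neighbours, the 5 nearest profiles of each member, and Ifnb1, Stat2, Irf9, Irf7, Irf3 and Isg15; Lyz2 and the markers at 0 were named after values were seen, and 1 gene of this rule is not reported here. Alternatives were other scalings, filters, tools and thresholds, a replicate block, summed copies, another gene length and each library left out. The crossed replicate block, the fit with unannotated loci kept and the other gene length, by longest transcript, were not planned.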

Additional observations from a re-analysis of the deposited data

How the results depend on the processing

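All 6 IFIT genes kept their direction under every alternative run, and passed in each but 2: at an adjusted p under 0.01, Ifit1bl2 did not pass (log2 fold change 3.03, adjusted p = 0.0116), and with a filter of 5 CPM in 2 libraries it was not tested. Leaving out each library gave log2 fold changes of 1.58 to 2.19 for Ifit1, 2.16 to 2.88 for Ifit2, 3.71 to 4.12 for Ifit3, 3.53 to 4.19 for Ifit3b, 5.04 to 5.16 for Ifit1bl1 and 2.52 to 3.89 for Ifit1bl2; the lone library of a group is then assumed to vary like the other group. Ifit1bl1 summed with Ifit1bl2 gave 4.26, and all 6 summed gave 3.27. A replicate block gave 6 members higher, with log2 fold changes of 1.88 for Ifit1 and 3.92 for Ifit3, and 640 genes higher and 292 lower in all, against 669 and 315 without it; the deviations of same-numbered libraries had a correlation of -0.373 across genes. A crossed replicate block, chosen after seeing the data, gave 1776 higher and 1361 lower. DESeq2 gave 826 higher and 400 lower of 22729 genes tested, and library size alone gave 461 and 291. With no filter the counts were 1144 and 683, at an adjusted p under 0.01 they were 310 and 88, and leaving out each library they ran from 373 to 1611 higher and from 135 to 1318 lower. The list counts that follow are to be read beside these totals of all genes, which moved with the setting as well. Interferon signalling had 7 higher at an adjusted p under 0.01. Of the enzymes of the RNA end, 2 were higher with DESeq2, 4 with the crossed replicate block, 3 with no filter, and 0 to 3 with a library left out. Of the initiation genes, 2 were higher with DESeq2, 4 higher and 2 lower with the crossed replicate block, 0 higher with library size alone, 3 with no filter, 0 at an adjusted p under 0.01, and 0 to 3 higher and 0 to 2 lower with a library left out. The crossed replicate block gave 1 sensing gene lower. Without UBXN9 2, 1 eIF3 gene was higher, and 5 neighbours were higher and 1 lower. Signs changed for genes that had not passed: Irf3 ran from -0.17 to 0.12, Eif3m from -0.23 to 0.54 and Kif20b from -1.87 to 0.33 with a library left out. The cause of these changes was not tested. Depth limits Ifit1bl1, Ifit1bl2 and Ifnb1, which had at most 25 counts in a control library.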
